A study of Homo sapiens with 27 samples.

Results

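Kallikrein-related peptidases are secreted serine proteases whose genes lie side by side on chromosome 19. Described here are 8 of them in MCF10A cells: KLK5, KLK6, KLK7, KLK8, KLK10, KLK11, KLK13 and KLK14. They were taken by gene symbol from a table of 36536 symbols or identifiers, with rows that share a symbol summed, and each of the 8 was found in 1 row. All 8 passed the filter on low counts, as did 15575 genes in all. MCF10A is an established, non-tumorigenic human breast epithelial line, so all libraries come from 1 cell line. The cells were grown in medium with horse serum, 20 ng/ml EGF, hydrocortisone, cholera toxin and insulin, and were then held for 18 h in medium free of growth factors. They next received PBS (the vehicle control), EGF (epidermal growth factor), OSM (oncostatin M) or TGFB (transforming growth factor beta), or EGF+OSM, EGF+TGFB, OSM+TGFB or EGF+OSM+TGFB, in fresh medium of the same kind. Each ligand was used at 10 ng/ml and RNA was taken at 24 h. A ninth group, T0, is the control at 0 h, with its treatment given as Null. Each of the 9 groups has 3 libraries, 27 in all, of polyA RNA. The labels number the libraries 1 to 3 in each group without saying whether they were separate cultures or days, so p-values measure the spread between these libraries, which may be technical.

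These proteases are made as inactive precursors and are switched on outside the cell by removal of a short amino-terminal piece, often by another member of the family. In the outer layers of skin, KLK5 can activate itself and the precursors of KLK7 and KLK14, and these enzymes then cut the adhesion proteins that hold corneocytes together. Inhibitors such as the SPINK5 product LEKTI hold that cascade in check. In breast, several members are known as genes expressed in normal epithelium and altered in tumours, KLK10 among them, which was first described as normal epithelial cell-specific 1.

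All 8 genes lie on the minus strand of chromosome 19 (GRCh38, GENCODE v44 gene models matched by Ensembl identifier), between bases 50943303 and 51084245, a stretch of 140.9 kb. KLK7, for example, spans bases 50976468 to 50984099 (ENSG00000169035), and KLK10 spans bases 51012739 to 51020175 (ENSG00000129451). The whole cluster of 15 genes spans 265.1 kb. KLK8 shares 204 bases with KLK9 on the same strand, a protein-coding gene without a symbol (ENSG00000269741) lies over 6694 bases of KLK8 on the same strand, and antisense non-coding genes lie over parts of KLK5, KLK6, KLK7, KLK8 and KLK10. The library kit keeps strand, but the strand setting used in counting is not given in the sources used here, so reads of these overlapping genes may not be fully separated. For KLK8 and the genes over it on the same strand, strand cannot separate the reads under any setting.

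The 250 bases before the transcript start given in a RefSeq table (GRCh38.p14) were found by symbol for 7 of the 8 genes, all but KLK8, and searched on both strands for 5 short motifs of factors that lie downstream of the ligands or act in epithelia. The sequences are shown because TGFB signals through SMAD proteins and 3 of the 7 hold the SMAD-binding core CAGACA, read as TGTCTG where it lies on the opposite strand, which 13.6% of 35116 promoters of that length also hold. These starts are not the outer ends of the gene models above: the stretches of KLK10, KLK11 and KLK14 lie wholly within those gene spans and the other 4 in part. All 250 bases of the KLK11 stretch, 182 of that of KLK7 and 0 of that of KLK14 are in minus-strand exons. The whole stretch before the RefSeq start of KLK14, chr19:51082888-51083137 on the minus strand, is printed first, with CAGACA and the SP/KLF motif GGGCGG in capitals, the latter read as CCGCCC where it lies on the opposite strand. For KLK6 (chr19:50969754-50969783) and KLK11 (chr19:51026814-51026843), both on the minus strand, the 30 bases around the match are printed with CAGACA alone in capitals, and the 4 matches of KLK11 overlap one another. The CAGACA and GGGCGG matches do not overlap.

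KLK14: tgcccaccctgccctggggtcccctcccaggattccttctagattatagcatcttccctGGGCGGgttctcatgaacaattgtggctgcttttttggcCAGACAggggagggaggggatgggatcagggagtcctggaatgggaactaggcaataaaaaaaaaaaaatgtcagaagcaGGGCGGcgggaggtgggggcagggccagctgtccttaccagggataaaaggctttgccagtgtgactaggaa
KLK6: actgtCAGACAgggacaaaaggaagccatt
KLK11: ggctgCAGACAGACAGACAGACAgagggag

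GGGCGG was in 5 of the 7 stretches (KLK6, KLK7, KLK11, KLK13 and KLK14) and in 42.6% of all. The AP-1 motif TGANTCA was in 0 of 7 and in 6.57% of all, the STAT motif TTCNNNGAA in 0 of 7 and in 6.57% of all, and the Grainyhead-like motif AACNNGTT in 0 of 7 and in 3.0% of all. These are matches of letters in a short window and not measured binding. Of the genes with CAGACA, KLK11 was called lower with TGFB than with PBS, as given below. KLK6 and KLK14 were not called, each with a log2 change of 0.36. KLK10, also called lower with TGFB, held 0 matches of CAGACA. Whether the matches bear on these levels was not tested.

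The libraries held 30.1 to 52.9 M estimated counts (M, 1e6), with a median of 39.5 M. All 11 fixed markers of mammary and squamous epithelium had a median of at least 10 CPM (counts scaled to library size, per 1e6), among them KRT5, KRT14 and TP63. Of the leukocyte markers PTPRC and CD3E, and of the endothelial markers PECAM1, VWF and CDH5, every one had a median under 1 CPM. The list markers CD68 (leukocyte, median 29.7 CPM), COL1A1 (37.4 CPM) and DCN (71.6 CPM, both fibroblast) stood higher, while the other 3 of 5 fibroblast markers had medians under 1 CPM. The part of other cell types in the results was not tested. In bulk RNA, fewer cells making a transcript and less of it per cell cannot be told apart. Within groups the kallikrein genes had a library that stood apart. The library numbered 3 was the lowest of its 3 in 55 of 72 sets (8 genes in 9 groups), and KLK5, KLK7, KLK8 and KLK10 were below the group mean in library 3 in 9 of 9 groups. For KLK7 that library averaged 0.58 below the group mean on the log2 scale (-0.58), and for KLK14 0.04 below (-0.04). What made these libraries lower was not tested, and counts of calls that move by over 1.5 times when they are left out are given with and without them. Unless stated, calls come from the main fit, which has no term for the library number (a replicate block). Counts with that block are given at the end.

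In the PBS control at 24 h the family was dominated by KLK7, the chymotrypsin-like enzyme of skin shedding. KLK7 stood at 169, 207 and 128 CPM in the 3 PBS libraries, a mean of 168 ± 39.4 (SD, n = 3). KLK5, the trypsin-like enzyme that activates it, stood at 38.5, 43.1 and 26.96 CPM. The level of library 2 was the highest and that of library 3 the lowest for both genes. Per kilobase of the canonical transcript, the scale on which genes can be compared, the mean PBS levels were 86.0 CPM per kb for KLK7, 23.9 for KLK5 and 18.3 for KLK8. They were 8.17 for KLK10, 3.25 for KLK6, 2.51 for KLK14, 1.46 for KLK11 and 0.255 for KLK13. KLK13 averaged 9.41 counts a library over all 27 libraries and KLK11 averaged 22.3, against 2435 for KLK7, so the depth limits what can be said of the first pair. The 8 genes summed to 255 ± 55.1 CPM in PBS, with KLK7 at 65.8% ± 1.53 of the sum. Of the other cluster members, KLK3 and KLK12 had 0 counts in all 27 libraries. KLK15 had 1 count in 1 library, and KLK2 averaged 2.74 counts. KLK4, KLK9 and KLK1 averaged 59.5, 16.6 and 15.6 counts a library. KLK4 was thus above KLK14 (46.1 counts), and KLK9 and KLK1 were above KLK13.

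**Figure D1:**
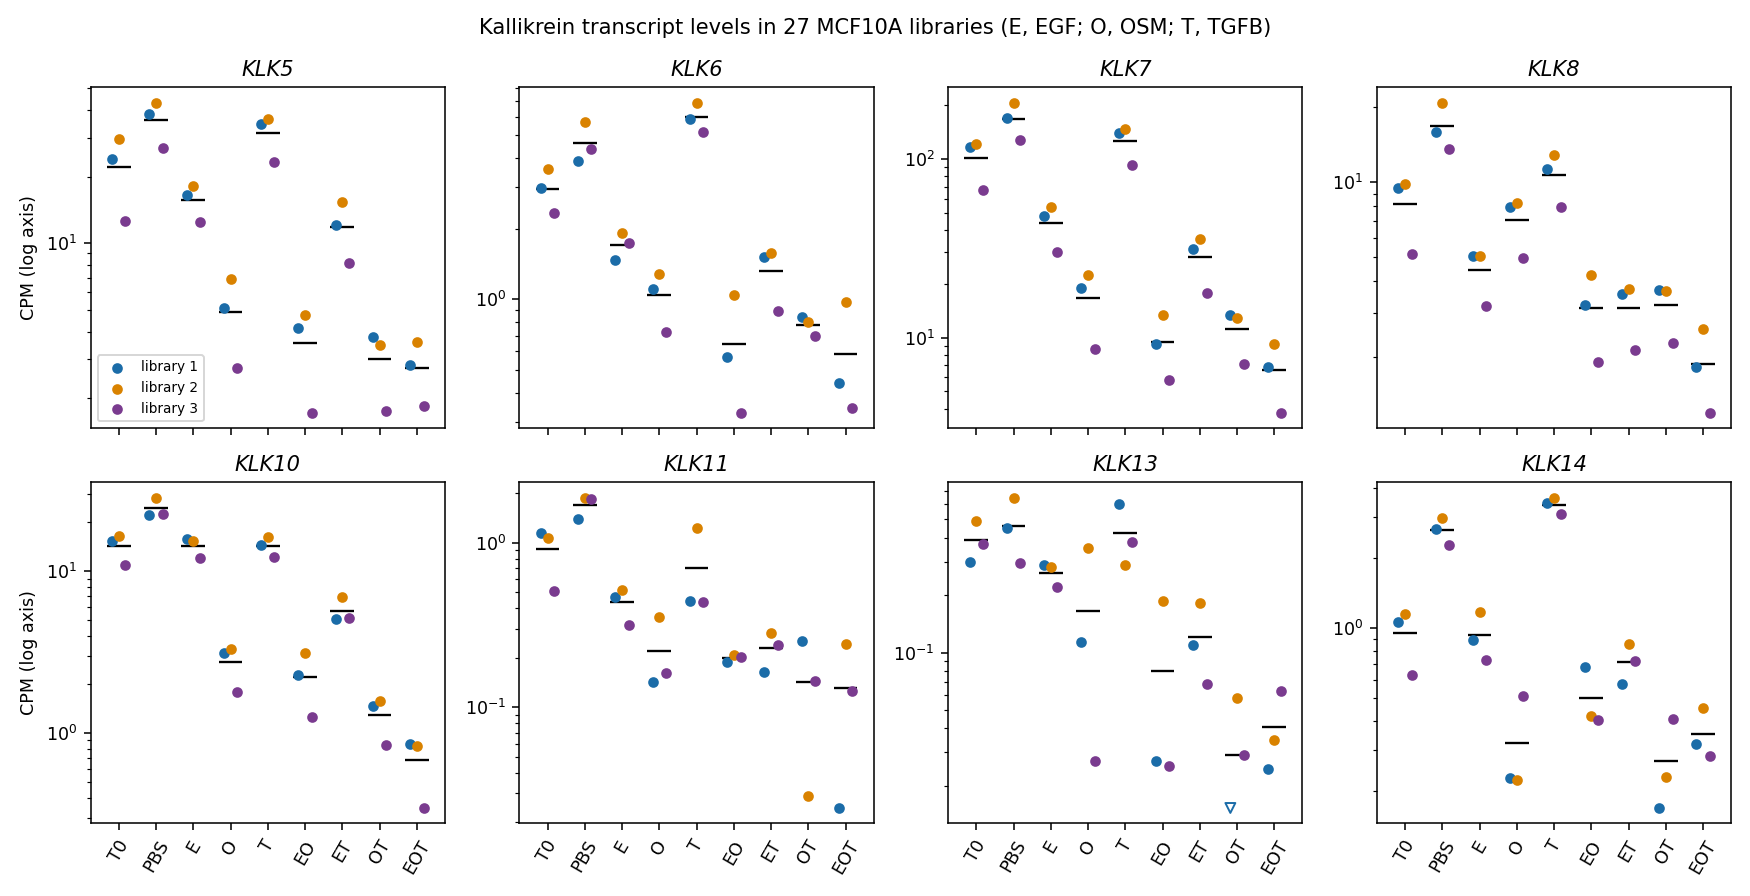
Level of each kallikrein gene in CPM (log axis, a separate scale for each gene) in the 9 groups, with E, O and T for EGF, OSM and TGFB; points are single libraries coloured by their number, bars are group means, and the open triangle marks a library with 0 counts. The PBS and TGFB groups hold the highest means of 6 and 2 genes, and the EGF+OSM+TGFB mean is the lowest for KLK5, KLK6, KLK7, KLK8, KLK10 and KLK11.

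The first comparison, PBS at 24 h against T0, spans a further day without ligand, the fresh medium and the vehicle. These cannot be told apart here. 3 of the 8 genes were called higher in PBS (edgeR, adjusted p under 0.05), against 16.2% of all genes tested: KLK14, KLK8 and KLK10. KLK14, a trypsin-like enzyme of skin, stood at 1.06, 1.15 and 0.630 CPM at T0 and at 2.68, 2.98 and 2.27 CPM in PBS. Its groups did not overlap, and it rose by 1.47 ± 0.27 on the log2 scale (SE; edgeR, adjusted p 0.00014). KLK8, a trypsin-like enzyme of skin and hippocampus also called neuropsin, went from 8.15 ± 2.62 CPM to 16.8 ± 3.67 CPM (SD, n = 3), a log2 change of 1.04 ± 0.30 (adjusted p 0.00921). KLK10 had a log2 change of 0.78 ± 0.22 (adjusted p 0.00966). The other 5 had positive log2 changes of 0.26 to 0.90 that did not pass, with a median over all 8 of 0.75 against -0.01 over all genes. The calls of KLK8 and KLK10 rested on single libraries. Without library 3 of T0 their log2 changes were 0.80 (adjusted p 0.0591) and 0.62 (0.0629), and without library 2 of PBS they were 0.85 (0.0552) and 0.65 (0.0555), which leaves 1 call each time. Without all the libraries numbered 3, an alternative chosen after seeing the data, 5 genes were called. With the replicate block, KLK5 (log2 change 0.76, adjusted p 4.1e-06), KLK6 (0.66, 0.0063) and KLK7 (0.75, 2.15e-06) were called higher too.

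EGF alone gave lower levels than PBS for most of the family. 7 of the 8 genes fell against PBS, where 38.6% of all genes were called lower, and 6 of these fell at least 2-fold, as did 15.9% of all genes. KLK7 stood at 48.3, 53.6 and 30.2 CPM with EGF, and its highest EGF library was below its lowest PBS library. It was 3.81-fold lower, a log2 change of -1.93 ± 0.37 (SE; adjusted p 9.13e-05). KLK8 stood at 5.05, 5.07 and 3.19 CPM with EGF against 15.9, 20.8 and 13.6 CPM in PBS. That is 3.76-fold lower, without overlap (log2 change -1.91 ± 0.31, adjusted p 1.12e-05). KLK11, a trypsin-like enzyme also called hippostasin, fell from 1.71 ± 0.269 to 0.434 ± 0.105 CPM (log2 change -1.96 ± 0.45, adjusted p 0.000328).

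Of the skin activators, KLK14 stood at 0.890, 1.18 and 0.732 CPM with EGF (log2 change -1.49 ± 0.27, adjusted p 2.66e-05) and KLK5 at 16.5, 18.2 and 12.49 CPM (-1.20 ± 0.34, adjusted p 0.00398). KLK6, a trypsin-like enzyme abundant in the nervous system and also called neurosin, fell from 4.65 to 1.71 CPM in the mean (log2 change -1.45 ± 0.28, adjusted p 5.62e-05). KLK10 was the one called gene under 2-fold, at 15.7, 15.4 and 12.0 CPM with EGF and 22.2, 28.3 and 22.7 CPM in PBS (log2 change -0.76 ± 0.22, adjusted p 0.00437). KLK13, a trypsin-like enzyme, did not pass (log2 change -0.81 ± 0.54, adjusted p 0.174). The median log2 change over the 8 genes was -1.47 with EGF, against -0.07 over all genes. Against T0, KLK6, KLK7, KLK8 and KLK11 were called lower with EGF (adjusted p 0.0145, 0.00604, 0.017 and 0.039). Between those groups 69.5% of all genes were called in either direction. KLK10 and KLK14 had EGF means near T0, at 14.4 against 14.2 CPM and 0.933 against 0.949 CPM (adjusted p 0.966 and 0.945). KLK5 and KLK13 did not pass against T0 either (0.217 and 0.368).

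OSM alone lowered all 8 genes at least 2-fold. The background shares were 29.8% of all genes called lower and 10.0% called lower at least 2-fold. KLK7 stood at 18.99, 22.5 and 8.61 CPM with OSM, each far under the lowest PBS library of 128 CPM. Its level was 10.0-fold lower (log2 change -3.33 ± 0.40, adjusted p 4.26e-07). KLK10 stood at 3.10, 3.33 and 1.78 CPM, 8.86-fold under PBS (log2 change -3.15 ± 0.26, adjusted p 6e-10). KLK14 stood at 0.228, 0.222 and 0.513 CPM, with library 3 here the highest and not the lowest. It was 8.25-fold under PBS (log2 change -3.04 ± 0.32, adjusted p 5.09e-09).

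KLK5 stood at 5.12, 6.88 and 2.73 CPM with OSM (log2 change -2.87 ± 0.39, adjusted p 1.74e-06), again without overlap with PBS. KLK11 and KLK6 had log2 changes of -2.91 ± 0.49 and -2.15 ± 0.30. KLK8 had the smallest log2 change of the 8, at 7.97, 8.28 and 4.97 CPM (log2 change -1.24 ± 0.30, adjusted p 0.00115). KLK13 had overlapping groups, at 0.114, 0.355 and 0.0270 CPM with OSM and 0.450, 0.647 and 0.293 CPM in PBS (log2 change -1.41 ± 0.57, adjusted p 0.0348). Its call was lost in DESeq2 (adjusted p 0.0567), without library 1 or 2 of PBS (0.0593 and 0.158), without library 1 or 3 of OSM (0.115 and 0.174) and without all libraries numbered 3 (0.121). The median log2 change over the 8 genes was -2.89, against 0.00 over all genes.

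EGF and OSM were also set against each other, which uses no PBS library. 4 of the 8 genes were called higher with EGF than with OSM, as were 28.8% of all genes: KLK10, KLK5, KLK14 and KLK7. KLK10 differed most, with an EGF level above the OSM level by 2.38 ± 0.26 on the log2 scale (adjusted p 8.88e-08). The difference was 1.67 ± 0.39 for KLK5 (adjusted p 0.001), 1.55 ± 0.33 for KLK14 (0.000272) and 1.39 ± 0.39 for KLK7 (0.00448). KLK8 had the opposite sign, a difference of -0.67 ± 0.32 that did not pass (adjusted p 0.0789), with EGF libraries at 3.19 to 5.07 CPM and OSM libraries at 4.97 to 8.28 CPM. KLK6, KLK11 and KLK13 did not pass either, at 0.70 ± 0.31, 0.94 ± 0.53 and 0.60 ± 0.60. Within the family sum, KLK7 made up 53.3% ± 3.23 with EGF and 49.3% ± 4.45 with OSM, and 65.2% ± 1.34 with TGFB.

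**Figure D2:**
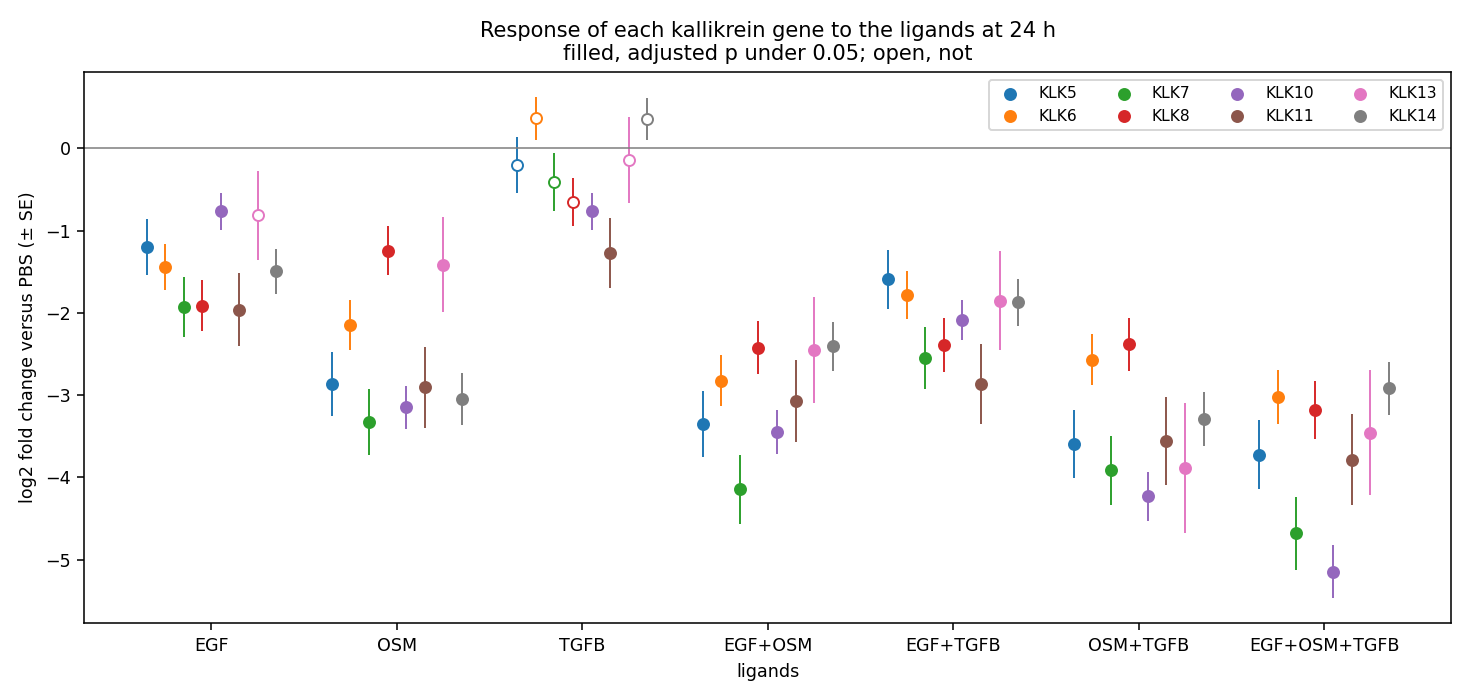
Log2 fold change of each kallikrein gene against PBS for the 7 ligand treatments, from the edgeR fit; bars are ± SE, filled points have an adjusted p under 0.05 and open points do not. The 8 genes sit between -1.24 and -3.33 with OSM and between -1.27 and 0.36 with TGFB.

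TGFB alone moved few of these genes in the main fit. 2 of the 8 were called lower, KLK10 and KLK11, against 15.8% of all genes, and 0 were called higher, against 19.9% of all genes (0 higher also in DESeq2). At an unadjusted p under 0.05, 3 passed, all lower. KLK10 stood at 14.6, 16.2 and 12.3 CPM with TGFB, below all PBS libraries (log2 change -0.76 ± 0.23, adjusted p 0.0105). Its TGFB mean of 14.4 CPM was near its T0 mean of 14.2 CPM (adjusted p 0.974). KLK11 stood at 0.444, 1.22 and 0.437 CPM, with library 2 the closest to the PBS range of 1.40 to 1.88 CPM and no overlap (log2 change -1.27 ± 0.43, adjusted p 0.0221).

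The remaining 6 genes did not pass with TGFB. KLK7 stood at 139.5, 147 and 92.6 CPM with TGFB, overlapping PBS (log2 change -0.41 ± 0.35, adjusted p 0.4). KLK14 stood at 3.44, 3.63 and 3.08 CPM, each above the highest PBS library of 2.98 CPM (log2 change 0.36 ± 0.26, adjusted p 0.303). KLK6 had the same log2 change of 0.36 ± 0.26 with overlapping groups (adjusted p 0.31). The median log2 change over the 8 genes was -0.31, against -0.01 over all genes. Without library 2 of PBS the KLK10 call was lost (adjusted p 0.059), as it was without library 3 of TGFB (0.053). The KLK11 call was lost without library 2 or 3 of PBS (adjusted p 0.0651 and 0.0625), without library 1 or 3 of TGFB (0.114 and 0.109), and without all libraries numbered 3 (0.187). The count of calls was therefore 0 without PBS library 2 or TGFB library 3, and 1 without PBS library 3 or TGFB library 1. Without all libraries numbered 3 it was 3, with KLK7 (log2 change -0.41, adjusted p 0.042) and KLK8 (-0.63, 0.00157) called lower beside KLK10. With the replicate block, KLK7 (log2 change -0.42, adjusted p 0.00135) and KLK8 (-0.66, 6.31e-06) were called lower beside KLK10 and KLK11.

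With 2 or 3 ligands all 8 genes were called lower than PBS, at least 2-fold each time. The shares of all genes called lower, by any amount, were 39.6% with EGF+OSM, 37.5% with EGF+TGFB, 31.8% with OSM+TGFB and 36.7% with EGF+OSM+TGFB. Shares of all genes at the 2-fold limit are not given here for these treatments. The median log2 changes of the 8 genes were -2.95, -1.98, -3.57 and -3.59 in that order, against medians over all genes of -0.05, -0.04, 0.00 and 0.00. These comparisons share the 3 PBS libraries with each other and with the single ligands.

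The lowest level of the family was with EGF+OSM+TGFB, where the 8 genes summed to 13.2, 17.9 and 7.99 CPM against 254, 310.2 and 200.1 CPM in PBS. KLK10 stood at 0.856, 0.836 and 0.345 CPM with the 3 ligands, 35.4-fold under PBS (log2 change -5.14 ± 0.32, adjusted p 2.51e-12). KLK7 stood at 6.87, 9.16 and 3.79 CPM, 25.6-fold under PBS (log2 change -4.68 ± 0.45, adjusted p 9.6e-09). Both ranges lay far below the PBS libraries. KLK14 and KLK6 moved less, with log2 changes of -2.92 ± 0.32 and -3.02 ± 0.33. KLK13 came down to a handful of counts: 3 counts over the 3 OSM+TGFB libraries against 60 over the PBS libraries, which is 6.07% of the PBS level (exact 95% interval 1.22% to 18.6%). With EGF+OSM+TGFB it had 4 counts, 8.36% of the PBS level (2.21% to 22.5%). These intervals cover counting error only.

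Groups were also compared that differ by 1 ligand and share another, with no PBS library in the contrast. The ligands of a combination were given together, so "added" refers to the make-up of the treatment and not to an order in time. OSM added to TGFB lowered 8 of 8 genes (26.4% of all genes called lower), and OSM added to EGF lowered 5 of 8 (17.1% of all genes), as did OSM added to EGF+TGFB (12.8% of all genes). The 5 were KLK5, KLK6, KLK7, KLK10 and KLK14 both times. KLK10 showed the largest of these effects on an EGF background, from 15.7, 15.4 and 12.0 CPM with EGF to 2.27, 3.14 and 1.26 CPM with EGF+OSM (log2 change -2.68 ± 0.27, adjusted p 5.53e-08). KLK8 did not pass there in the main fit (log2 change -0.51 ± 0.34, adjusted p 0.262). KLK8 (-0.52, adjusted p 0.00108) and KLK13 (-1.73, 0.0272) were called lower there with the replicate block. So was KLK8 for OSM added to EGF+TGFB (-0.77, 0.000101). The KLK14 call for OSM added to EGF (log2 change -0.91 ± 0.31, adjusted p 0.0239) was lost without library 2 of EGF (0.135), library 2 of EGF+OSM (0.0926) or library 3 of EGF+OSM (0.103). For OSM added to EGF+TGFB, KLK6 and KLK14 were lost without library 2 of EGF+TGFB (adjusted p 0.0551 and 0.119), library 1 of EGF+OSM+TGFB (0.0708 and 0.0967) or library 3 of EGF+OSM+TGFB (0.0654 and 0.0949), which leaves 3 calls each time. Without all libraries numbered 3, KLK14 was lost (-0.95, adjusted p 0.0536) and KLK8 was called (-0.79, 0.00396).

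EGF added to TGFB also lowered 8 of 8 genes (35.5% of all genes called lower), with log2 changes from -1.32 for KLK10 to -2.23 for KLK14. The call of KLK11 was lost without library 2 of TGFB (adjusted p 0.144). That of KLK13 was lost without library 1 of TGFB (0.0856), library 1 of EGF+TGFB (0.0508), library 3 of EGF+TGFB (0.0694) or all libraries numbered 3 (0.0691). Added to OSM, EGF lowered 1 gene, KLK8, where 31.8% of all genes were called lower. KLK8 went from 7.97, 8.28 and 4.97 CPM with OSM to 3.22, 4.24 and 1.90 CPM with EGF+OSM, without overlap (log2 change -1.18 ± 0.33, adjusted p 0.00401). Without library 2 of EGF+OSM 4 genes fell, with KLK6, KLK7 and KLK13 joining. Without library 3 of OSM 4 genes were called, of which KLK6, KLK7 and KLK8 fell and KLK14 rose (log2 change 1.14, adjusted p 0.0148). Without all libraries numbered 3, 3 were called, of which KLK7 and KLK8 fell and KLK14 rose (1.29, adjusted p 0.00691). Added to OSM+TGFB, EGF lowered 0 of 8 genes in edgeR (25.9% of all genes called lower), with 1 at an unadjusted p under 0.05 and 2 called in DESeq2. That count was 1 without library 3 of OSM+TGFB or library 2 of EGF+OSM+TGFB, and 3 without all libraries numbered 3.

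TGFB added to another ligand lowered KLK10 each time. Added to EGF it lowered 1 of 8 (27.7% of all genes called lower), and KLK10 went to 5.03, 6.95 and 5.14 CPM (log2 change -1.32 ± 0.24, adjusted p 8.02e-05). Added to EGF+OSM it lowered 1 of 8 (29.5% of all genes; log2 change of KLK10 -1.70 ± 0.39, adjusted p 0.000618). Added to OSM it lowered 3 of 8 (25.6% of all genes): KLK10 (log2 change -1.09 ± 0.33, adjusted p 0.00925), KLK8 (-1.14 ± 0.33, adjusted p 0.00679) and KLK13 (-2.47 ± 0.90, adjusted p 0.0239), the last with overlapping groups and few counts. Without library 2 of OSM or library 3 of OSM+TGFB only KLK8 passed, with KLK10 at adjusted p 0.0548 and 0.0572 and KLK13 at 0.378 and 0.0586. KLK13 was also lost without library 1 of OSM+TGFB (0.102). Without all libraries numbered 3 the counts were 3 on EGF, 5 on OSM and 4 on EGF+OSM. The count on EGF+OSM was 2 without library 3 of EGF+OSM or library 2 of EGF+OSM+TGFB, with KLK8 joining KLK10.

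**Figure D3:**
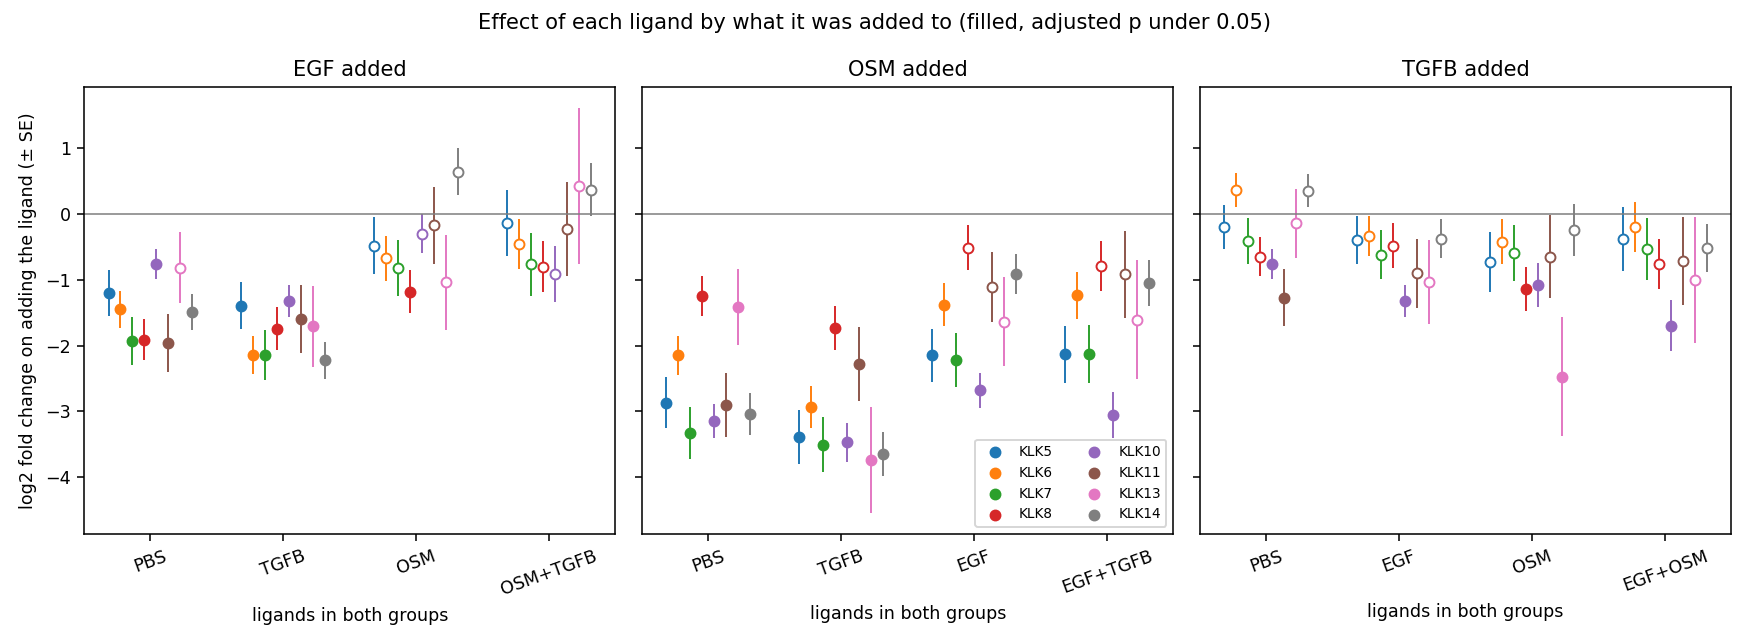
Log2 fold change (± SE) of each kallikrein gene between groups with and without EGF, OSM or TGFB that share the ligands on the x axis; filled points have an adjusted p under 0.05 and open points do not. The OSM panel is filled for 8 genes on TGFB and for 5 on EGF, and the TGFB panel is filled for KLK10 in each column.

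Whether a combination differed from the sum of its single ligands on the log2 scale was tested as a departure from additivity. KLK14 alone was called for EGF+OSM in the main fit, where 38.7% of all genes were called in either direction. Its 3 EGF+OSM libraries stood at 0.677, 0.419 and 0.404 CPM, about the level of the OSM libraries at 0.222 to 0.513 CPM and below the EGF libraries at 0.732 to 1.18 CPM. The EGF+OSM level was above the additive one by 2.13 ± 0.45 on the log2 scale (adjusted p 0.000452). The log2 change was -1.49 with EGF, -3.04 with OSM and -2.40 with both. EGF added to OSM gave 0.64 ± 0.36, which did not pass (adjusted p 0.124), so the lower level with EGF alone was not seen on top of OSM. KLK11 and KLK7 had departures of 1.80 ± 0.74 and 1.11 ± 0.56 that did not pass (adjusted p 0.0582 and 0.127), and 2 genes passed at an unadjusted p under 0.05. DESeq2 called 2 genes. KLK11 joined the calls without library 2 of OSM, TGFB or OSM+TGFB or without library 1 of EGF+OSM+TGFB, for a count of 2, and without all libraries numbered 3 the count was 4. With the replicate block, departures of KLK5 (0.72, adjusted p 0.0033), KLK7 (1.15, 5.75e-06), KLK8 (0.74, 0.000481) and KLK11 (1.87, 0.0302) were called too.

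The other departures gave 0 calls of 8 in the main edgeR fit and 0 in DESeq2. With the replicate block some were called, as given at the end. For EGF+TGFB (29.8% of all genes called) the members' departures ran from -0.89 to 0.37, with 0 at an unadjusted p under 0.05. For OSM+TGFB (23.3% of all genes) they ran from -2.33 for KLK13 to 0.62, with 1 at an unadjusted p under 0.05. For EGF+OSM+TGFB (48.0% of all genes) they ran from -1.09 to 2.36, with 2 at an unadjusted p under 0.05. The 3-way term, which takes out the pairs as well, gave 0 calls of 8, where 3.9% of all genes were called. At an unadjusted p under 0.05 the 3-way term also gave 0. Its standard errors for these genes in the main fit were 0.60 to 1.66, so a 2-fold 3-way term was not detectable in that fit. Its standard errors with the replicate block are not given here. Without all libraries numbered 3, the departure was called for 1 gene with EGF+TGFB and for 2 genes with all 3 ligands. Single libraries also moved the counts: 1 gene was called for OSM+TGFB without library 3 of OSM, and 1 for EGF+OSM+TGFB without library 2 or 3 of OSM, library 2 of TGFB, library 2 of OSM+TGFB or library 1 of EGF+OSM+TGFB.

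**Figure D4:**
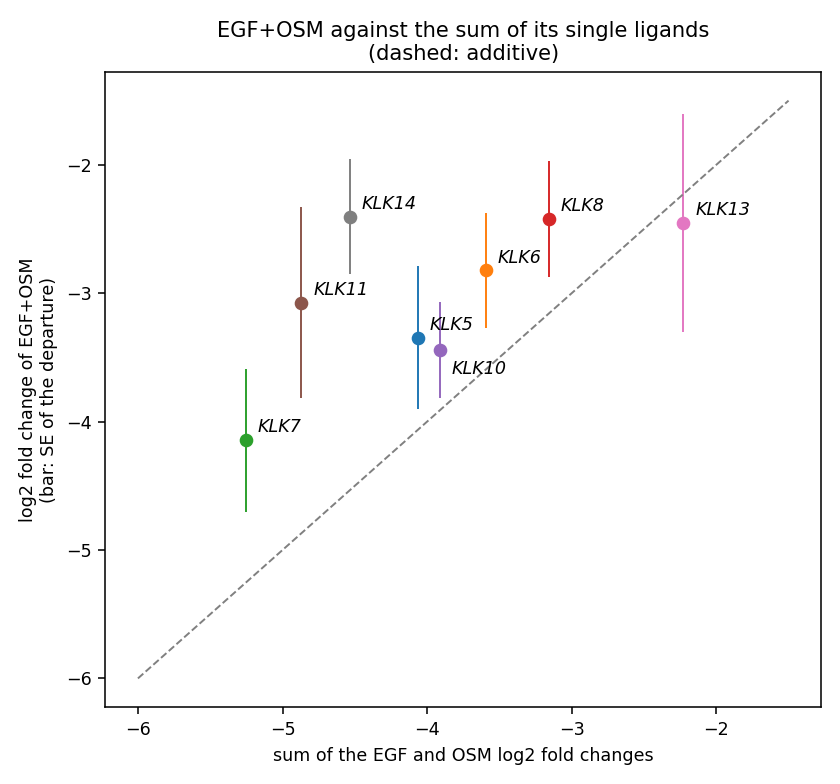
Log2 fold change with EGF+OSM (y axis) against the sum of the EGF and OSM log2 fold changes (x axis), all against PBS; bars are the SE of the departure and the dashed line is additivity. KLK14 sits above the line by 2.13, and KLK13 sits below it by 0.23 (-0.23).

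Across all 9 groups the levels fell into a similar order for most of the genes. The PBS mean was highest for 6 genes, and the TGFB mean was highest for KLK6 and KLK14. Of the 64 steps between neighbours in these orders, 8 were called. KLK10 had 4 of them: PBS over EGF, T0 over EGF+TGFB (70.9% of all genes called between those groups), EGF+TGFB over OSM (60.4%) and EGF+OSM over OSM+TGFB (68.9%). KLK5 had EGF+TGFB over OSM, KLK6 and KLK7 had T0 over EGF (69.5% of all genes), and KLK14 had PBS over T0. No step was called for KLK8, KLK11 or KLK13, although the libraries of some neighbours did not overlap, such as PBS and TGFB for KLK8 (adjusted p 0.0932) and PBS and T0 for KLK11 (0.0965). Over all 36 pairs of groups, 31 were called for KLK10, 26 each for KLK6, KLK7 and KLK14, 25 for KLK5, 22 for KLK8, 20 for KLK11 and 17 for KLK13, where 61.2% of gene and pair combinations were called over all genes.

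The 8 genes were alike across the groups, as a description over 9 group means that share their libraries and scaling. Pearson's r of log2 group means between 2 of them ran from 0.756 to 0.983 with a median of 0.920, and 17 of 28 pairs were over 0.9. The share over all pairs of genes is not given here, so this likeness is not shown to be particular to the family. The 3 closest genes outside the family had r from 0.964 to 0.996 over the 8 members. Among 6631 genes compared, the one most like KLK7 was PSCA (r = 0.996), followed by HSD11B2 (0.993) and LIPK (0.992). The closest to KLK5 was DSG4, a desmosomal cadherin (0.993), to KLK10 the keratin KRT4 (0.979), to KLK8 S100P (0.985) and to KLK13 the keratin KRT23 (0.975). The closest to KLK6 was IRX6 (0.993), to KLK11 TPCN1 (0.994) and to KLK14 LMTK2 (0.989).

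Position in the cluster was set beside the response, with the other 3 cluster genes that passed the filter. KLK4, an enzyme of tooth enamel whose gene is the nearest to KLK5 on one side, went the other way with EGF. It stood at 0.875, 0.884 and 1.25 CPM in PBS and at 2.09, 1.72 and 1.88 CPM with EGF, without overlap (log2 change 0.92 ± 0.19, adjusted p 9.7e-05). It rose further with EGF+OSM, to 3.20, 3.05 and 2.40 CPM (log2 change 1.52 ± 0.19, adjusted p 4.15e-08), and did not pass with OSM or TGFB (0.37 ± 0.19 and -0.22 ± 0.20). KLK9, which lies between KLK8 and KLK10, fell with EGF (log2 change -1.82 ± 0.51), OSM (-2.21 ± 0.53) and TGFB (-1.40 ± 0.50). KLK1, at the far end of the cluster, fell with OSM (-2.09 ± 0.48) and did not pass with EGF or TGFB (-0.27 ± 0.40 and 0.15 ± 0.40). Few counts limit KLK9 and KLK1: KLK9 averaged 16.6 a library, with 0 in 4 libraries, and KLK1 averaged 15.6. KLK9 also overlaps KLK8 on the same strand. CTU1, a tRNA-modifying enzyme gene beyond KLK14 and the one tested gene among 6 flanking the cluster, did not pass with any single ligand (-0.13 ± 0.21, -0.26 ± 0.22 and -0.31 ± 0.22 with EGF, OSM and TGFB). It was called lower with OSM+TGFB (-0.65 ± 0.22, adjusted p 0.0127).

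**Figure D5:**
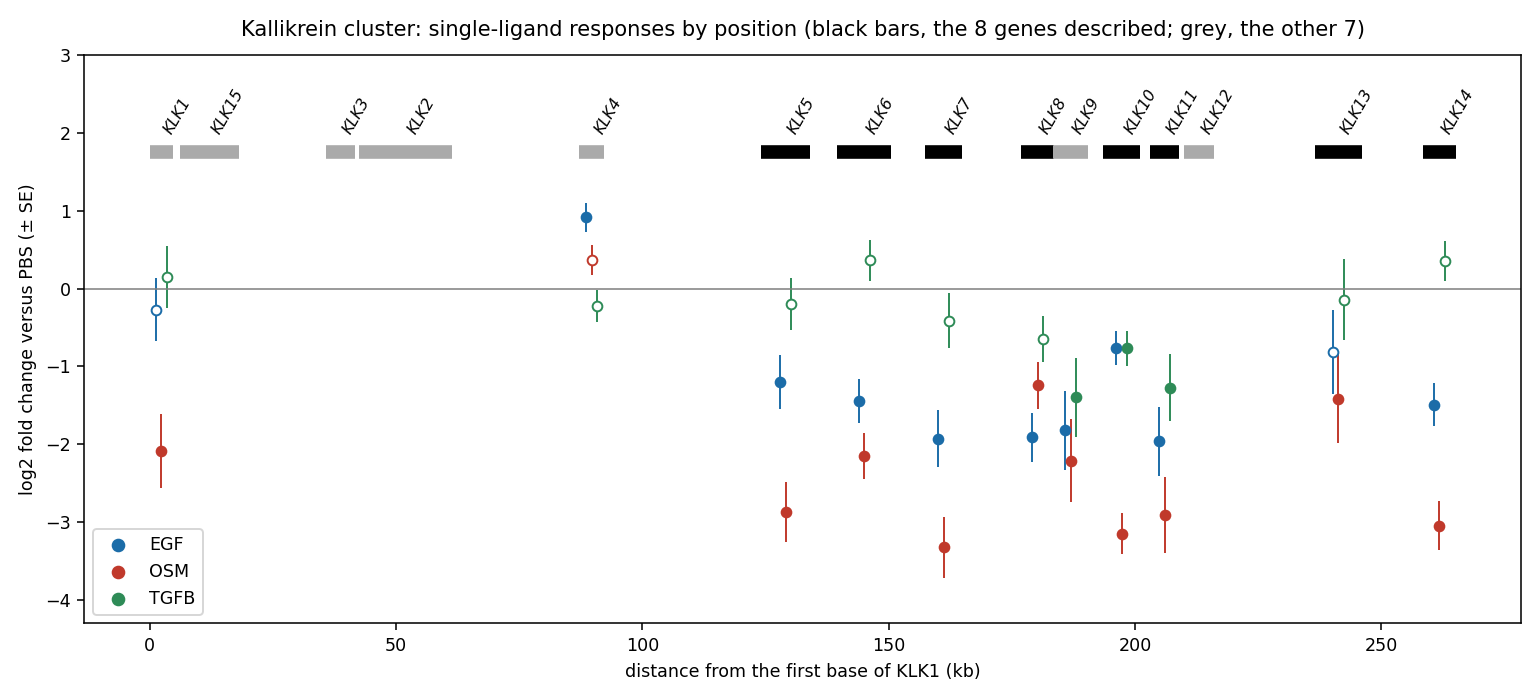
Log2 fold change (± SE) against PBS with EGF, OSM and TGFB for the cluster genes that passed the filter, placed by the distance in kb of the gene from the first base of KLK1; black bars are the 8 genes described, grey bars the other 7, and filled points have an adjusted p under 0.05. KLK4 is the one gene above 0 with EGF, at 0.92.

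Other genes of the pathway came from lists of known inhibitors, activating proteases, and substrates or receptors, and showed changes in both directions. Of 17 inhibitor genes, all tested, 4 rose and 8 fell with EGF, 5 rose and 8 fell with OSM, 3 rose and 2 fell with TGFB, and 5 rose and 9 fell with EGF+OSM+TGFB. In those comparisons 34.9%, 33.5%, 19.9% and 37.7% of all genes were called higher, and 38.6%, 29.8%, 15.8% and 36.7% lower. The inhibitors' median log2 changes were -0.27 with EGF, -0.41 with OSM and 0.05 with TGFB. SERPINA5, the protein C inhibitor, which can block several kallikreins, went from 28.4, 33.1 and 22.7 CPM in PBS to 1.38, 1.54 and 1.07 CPM with EGF (log2 change -4.39 ± 0.29, adjusted p 7.97e-12). WFDC5, a protein with inhibitor-like domains, fell from 2.20 ± 0.450 CPM to 0.0825 ± 0.0875 CPM with EGF+OSM+TGFB. SERPINA1, alpha-1 antitrypsin, rose from 15.5 ± 0.592 CPM to 912 ± 23.9 CPM with OSM, 58.7-fold higher (log2 change 5.88 ± 0.08, adjusted p 5.21e-26).

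Of 15 genes of activating or upstream proteases 11 were tested. With EGF 4 rose and 5 fell, with OSM 4 rose and 6 fell, with TGFB 3 rose and 1 fell, and with EGF+OSM+TGFB 3 rose and 6 fell. The shares over all genes, given with the inhibitors, run from 19.9% to 37.7% higher and from 15.8% to 38.6% lower. TMPRSS11E, a membrane serine protease of squamous epithelia, went from 8.86, 8.52 and 8.68 CPM in PBS to 0.245, 0.383 and 0.282 CPM with EGF+OSM+TGFB (log2 change -4.85 ± 0.23). TMPRSS13, a related membrane protease, had a log2 change of -3.64 ± 0.25 there. With the same 3 ligands the plasminogen activators rose: PLAU went from 76.0 ± 5.43 to 1063 ± 70.9 CPM and PLAT from 21.0 ± 0.754 to 154 ± 15.1 CPM.

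Of 19 genes of substrates or receptors 15 were tested. With EGF 4 rose and 8 fell, with OSM 4 rose and 8 fell, with TGFB 8 rose and 2 fell, and with EGF+OSM+TGFB 6 rose and 7 fell. With TGFB, 19.9% of all genes were called higher and 15.8% lower, and with EGF the shares were 34.9% and 38.6%, with OSM 33.5% and 29.8%, and with all 3 ligands 37.7% and 36.7%. DSG1, a desmosomal cadherin cut in skin shedding, stood at 9.36, 8.20 and 12.4 CPM in PBS and at 0.114, 0.200 and 0.270 CPM with OSM (log2 change -5.65 ± 0.36, adjusted p 7.61e-13). CDSN, corneodesmosin, a substrate of KLK7, stood at 12.9, 16.2 and 23.8 CPM in PBS and at 1.14, 0.998 and 0.297 CPM with OSM (log2 change -4.43 ± 0.51, adjusted p 1.77e-07). With TGFB neither passed (log2 changes -0.24 ± 0.24 and 0.17 ± 0.38). DSC1, a desmosomal cadherin with few counts, fell with EGF (log2 change -3.23 ± 0.55) and OSM (-2.84 ± 0.55). FN1, the matrix protein fibronectin, rose with TGFB from 132 ± 18.3 to 1964 ± 79.0 CPM (log2 change 3.90 ± 0.20). Whether any of these changes bears on the kallikrein genes was not tested.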

How the data were processed

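PolyA RNA of 27 MCF10A libraries, 3 in each of 9 groups, was read with an Illumina TruSeq stranded kit, per the labels. The authors deposited estimated counts per gene, all whole numbers, made with kallisto 0.46.2 after Trim Galore 0.4.3 and cutadapt 1.10 on GRCh38.p5 or hg38, per the submitters' processing notes; how transcripts were summed to genes is not given in the sources used here. Rows sharing a symbol were summed (40487 rows to 36536), and 7165 rows without a symbol, with 0.324% of counts, kept their identifier. Libraries held 30.1 to 52.9 M counts (M, 1e6).

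edgeR 4.0.16 (R 4.3.3; filterByExpr, TMM factors 0.867 to 1.118, robust quasi-likelihood fit of all 27 libraries, 18 residual degrees of freedom, coefficient of variation 7.8%) tested 15575 genes, with Benjamini-Hochberg adjustment over all of them in each comparison and calls at an adjusted p under 0.05. Shares over all genes are at that adjusted limit, also beside member counts at an unadjusted p. CPM use TMM-scaled totals. Fold changes carry a prior count of 0.125, and a standard error is the log2 change over the root of F. Counts were also simulated for all 27 libraries from the PBS means and the fitted spread, with 200 genes changed in the EGF libraries only. The procedure recovered 68.7% of these at 1.5-fold, 79.1% at 2-fold and 92.4% at 4-fold over 15026 genes, with 9 false calls. The simulation held no effect in the other groups and no offset by library number, unlike the data. Group means were compared by Pearson's r of log2 CPM with a prior count of 2. Alternatives were DESeq2 1.42.0, upper-quartile scaling, no filter on low counts, rows as deposited, a prior count of 2, a 2-fold limit, a replicate block, each library left out in turn and, chosen after seeing the data, all libraries numbered 3 left out.

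The members and gene lists were chosen with earlier results of these data known. All members were named; from each list, up to 4 genes with the largest called change, of which 1 is not reported here.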

Additional observations from a re-analysis of the deposited data

Results flagged for a closer look

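1 result met the rules for a closer look, because the effect of EGF differed by whether OSM was present in a test of that difference. For KLK14 the log2 change with EGF+OSM exceeded the sum of those with EGF and OSM by 2.13 ± 0.45 (SE; edgeR, adjusted p 0.000452). EGF lowered KLK14 by a log2 change of -1.49 ± 0.27 when added to PBS, and gave 0.64 ± 0.36 when added to OSM (adjusted p 0.124). Without library 3 of OSM the last value was 1.14 (adjusted p 0.0148), and without all libraries numbered 3, chosen after seeing the data, it was 1.29 (0.00691). The EGF+OSM libraries stood at 0.677, 0.419 and 0.404 CPM and the OSM libraries at 0.228, 0.222 and 0.513 CPM, which is 16 to 25 and 8 to 19 counts a library. What lies behind the difference was not tested. Groups of 3 libraries are too small for the check on single outlying libraries.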

How the results depend on the processing

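Of 176 values (8 genes in 22 comparisons), 85 were called and 73 of these stayed called under all alternatives run, and 0 changed sign while called. Upper-quartile scaling, no filter on low counts and rows as deposited moved no count of called genes by over 1.5 times. With DESeq2 the count was 2 for the EGF+OSM departure, 2 for EGF added to OSM+TGFB and 2 for TGFB added to EGF+OSM, from 1, 0 and 1. With a 2-fold limit it was 1 for TGFB against PBS, from 2.

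The libraries numbered alike also carry consecutive sample numbers in their deposited names, but what the number stands for is not stated. Their deviations correlated at r from -0.03 to 0.178 over 108 pairs, with 23 over 0.1. Of 27 libraries, 26 correlated best with their own number, which is a hint that these libraries belong together. Shares of all genes called under the block, without replicate 3 or in DESeq2 are not given here. Gains in these settings are therefore not set against all genes. With a replicate block 31 calls were gained and 0 lost. Among the gains were KLK8 and KLK13 for OSM added to EGF and KLK8 for OSM added to EGF+TGFB. The list that follows leaves out the counts of those comparisons. The blocked counts were 4 for TGFB against PBS, 6 for PBS against T0, 5, 2, 1 and 3 for the departures of EGF+OSM, EGF+TGFB, OSM+TGFB and all 3 ligands, 4 and 3 for EGF added to OSM and to OSM+TGFB, and 4, 5 and 3 for TGFB added to EGF, OSM and EGF+OSM. Without replicate 3 in every group, chosen after seeing the data, 23 calls were gained and 4 lost. The counts were 5 for PBS against T0, 4, 1 and 2 for the departures of EGF+OSM, EGF+TGFB and all 3 ligands, 3 and 3 for EGF added to OSM and to OSM+TGFB, and 3, 5 and 4 for TGFB added to EGF, OSM and EGF+OSM.

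Leaving out single libraries, the count ran from 0 to 2 for TGFB against PBS, 1 to 4 for PBS against T0, 1 to 2 for the EGF+OSM departure, 0 to 1 for that of OSM+TGFB, 0 to 1 for that of all 3 ligands, 1 to 4 for EGF added to OSM, 0 to 1 for EGF added to OSM+TGFB, 3 to 5 for OSM added to EGF+TGFB, 1 to 3 for TGFB added to OSM and 1 to 2 for TGFB added to EGF+OSM. The cause of these moves was not tested. Depth limits KLK11 and KLK13, which averaged 22.3 and 9.41 counts a library.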
